A study of Saccharomyces cerevisiae with 6 samples.

Results

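Calcineurin and its calcium supply are described here through 10 genes of budding yeast, Saccharomyces cerevisiae, out of 5349 genes tested on the arrays. The genes were chosen by name: CNA1, CMP2 and CNB1 for the phosphatase calcineurin, CRZ1 for its transcription factor, RCN1 and RCN2 for its regulators, CCH1 and MID1 for the calcium channel of the plasma membrane, and PMC1 and PMR1 for calcium pumps of inner membranes. Each had exactly 1 probe set naming that gene alone, so that no choice between probe sets arose, and all 10 were tested. The cells treated with zymolyase, an enzyme preparation that breaks down wall glucan, received 30 U/ml at 37 °C for 10 min, and the control cells received none. Each group held 3 samples with 1 Affymetrix array each. All cultures were the strain labelled BY4743, given as a MATa/α diploid with the alleles his3Δ1, leu2Δ0, met15Δ0, ura3Δ0 and lys2Δ0, kept in the rich medium YPD at 25 °C for 2 days. The labels give no temperature for the control cells during the digestion step, so enzyme and temperature cannot be told apart for any gene below. They also do not say whether replicates were separate cultures, and the p-values then measure only the spread between these samples.

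Calcineurin is a phosphatase made of a catalytic and a regulatory subunit and is switched on by calcium and calmodulin. In yeast, damage to the wall or membrane can open the Cch1-Mid1 channel, calcium enters, and calcineurin removes phosphates from Crz1, which then moves into the nucleus and activates genes of wall repair, ion transport and calcium removal. Pmc1 pumps calcium into the vacuole and Pmr1 pumps calcium and manganese into the Golgi, which ends the signal and refills the stores. Rcn1 and Rcn2 bind calcineurin and tune it. The activity of calcineurin and of Crz1 is set on the proteins and is not measured by an array.

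Values are MAS5 signals in intensity units, a brightness per probe set that the authors scaled to a common mean on each array. Less messenger RNA per cell and fewer cells therefore cannot be told apart. Every member exceeded, on every array, the 99th percentile of the second-species probe sets on this design, which serve as background, by at least 4.61-fold. Log2 fold changes are zymolyase minus control, ± after them is the standard error, and adjusted p-values are from limma over 5394 probe sets with Benjamini-Hochberg adjustment and a threshold of 0.05. The coefficient of variation of a member within a group of 3 arrays was between 1.66% and 13.4%, with a median of 5.39%.

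As checks on the samples, log2 signals correlated at 0.985 to 0.987 between arrays of a group and at 0.938 to 0.947 across groups. The mating-type genes of the strain labelled as a diploid were read from lists of markers. The summed signal of 4 α-specific genes, all above background, was between 22046 and 24477 with zymolyase and between 20326 and 22962 in the control. That of 5 a-specific genes, of which 2 were above background on every array, was between 117 and 134 with zymolyase and between 142 and 171 in the control. An a/α diploid represses both sets, so the α-specific signals go against the label. The 6 haploid-specific genes were above background on every array, with sums between 5339 and 5634 with zymolyase and between 5475 and 6019 in the control. No reference array of a known haploid or diploid was present, so these sums alone do not settle the label.

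After zymolyase, 2 members were more than 2-fold higher: CMP2, a catalytic subunit of calcineurin, and RCN1, a regulator that binds it. Of all tested probe sets, 10.3% passed with a change of at least 2-fold in either direction. The other catalytic subunit gene, CNA1, did not pass the test. PMC1 and CCH1 rose by smaller steps, and CNB1, CRZ1 and PMR1 by the smallest. RCN2 fell slightly and MID1 did not pass. In all, 7 members rose, 1 fell and 2 did not pass. Passing the test was common on these arrays: 71.5% of all tested probe sets passed, 32.6% upward and 38.9% downward, so a pass by 8 of 10 members is close to the background.

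**Figure D1:**
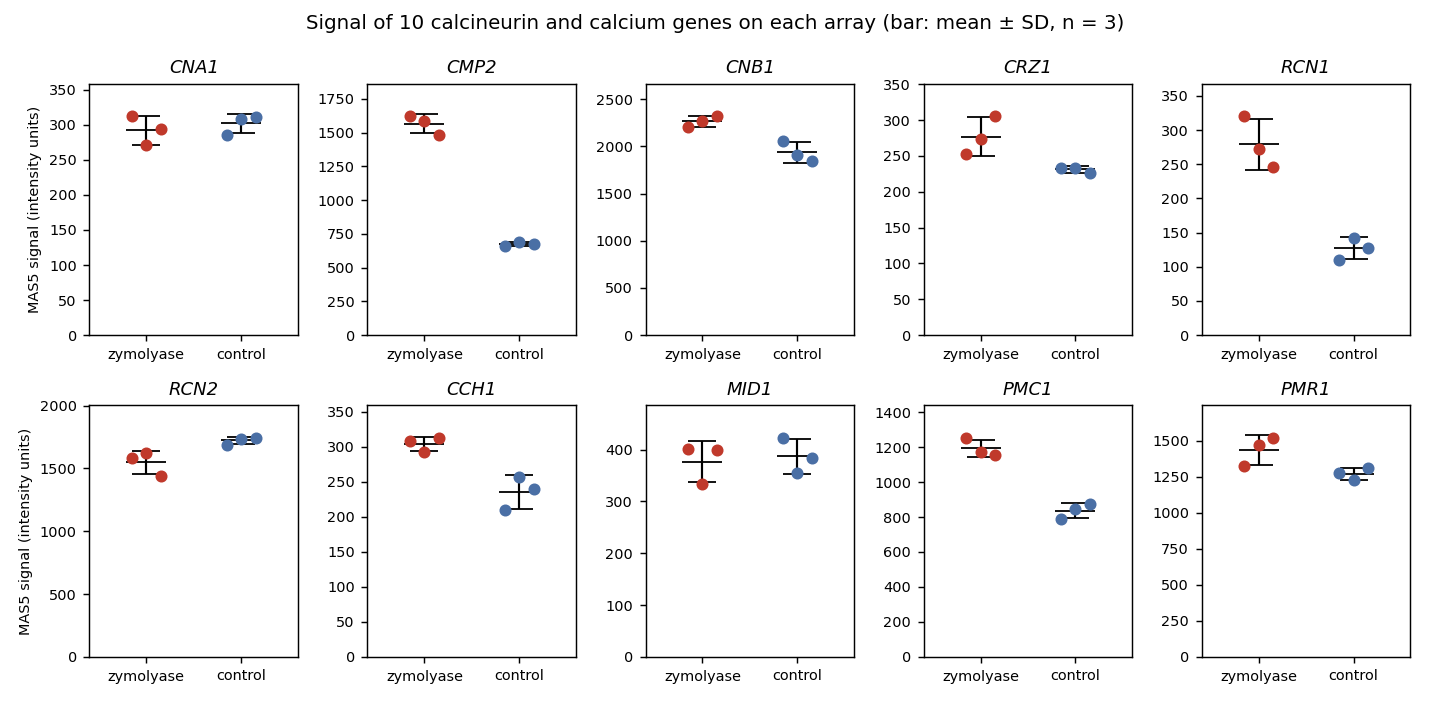
MAS5 signal (vertical axes, intensity units, each starting at 0) of the 10 genes on each of 3 zymolyase arrays (red) and 3 control arrays (blue), with bars at the mean ± SD. CMP2 and RCN1 stand apart most clearly, with group means of 1564 and 675 for CMP2 and of 279 and 127 for RCN1, while the points of CNA1 and of MID1 overlap between the groups.

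CMP2 encodes a catalytic subunit of calcineurin. Its signals were 1619, 1588 and 1484 on the zymolyase arrays, against 661, 689 and 674 on the control arrays. Every zymolyase array was above every control array by a wide gap. CMP2 averaged 1564 ± 70.8 with zymolyase and 675 ± 13.6 in the control (SD, n = 3 each), a 2.32-fold rise (log2 fold change 1.21 ± 0.06, adjusted p = 3.3e-09, limma). Its log2 fold change was higher than that of 95% of all tested probe sets.

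CNA1 encodes the alternative catalytic subunit, which like Cmp2 pairs with Cnb1. Its signals were 312, 271 and 294 with zymolyase and 286, 308 and 311 in the control. The ranges overlapped, and the means were 292 ± 20.9 and 302 ± 14 (SD, n = 3 each). The log2 fold change of -0.05 ± 0.09 did not pass (adjusted p = 0.66, limma), with a 95% confidence interval from -0.24 to 0.15, which does not reach the change of CMP2. Within an array, the log2 ratio of CMP2 over CNA1 was higher with zymolyase by 1.26. All 3 zymolyase arrays exceeded all 3 control arrays in this ratio (two-sided exact permutation test, p = 0.1, the smallest that 3 against 3 arrays allow). It is 1 of 4 such ratios compared, and adjusting over the 4 left p at 0.1 for each (exact permutation test).

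CNB1 encodes the regulatory subunit, the calcium-binding partner of either catalytic subunit. Its signals were 2204, 2272 and 2317 with zymolyase and 2059, 1904 and 1847 in the control. The groups did not overlap, but the gap was narrow beside that of CMP2. The log2 fold change was 0.23 ± 0.06 (adjusted p = 0.0029, limma), or 1.17-fold. The genes for the 3 calcineurin subunits thus differed in what they did: a large rise for CMP2, a small one for CNB1 and no pass for CNA1.

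RCN1 encodes a calcineurin-binding regulator of the family known in animals as calcipressins, and is itself a target of Crz1. Its signals were 320, 272 and 246 with zymolyase, against 110, 142 and 128 in the control. The lowest zymolyase array was well above the highest control array. RCN1 averaged 279 ± 37.5 with zymolyase and 127 ± 16.1 in the control (SD, n = 3 each), a 2.20-fold rise (log2 fold change 1.14 ± 0.13, adjusted p = 6.0e-06, limma). Its lowest array was 4.61 times background, and it had the largest coefficients of variation among the members, 13.4% with zymolyase and 12.8% in the control.

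RCN2, the other regulator, went the opposite way by a small step. Its signals were 1579, 1620 and 1441 with zymolyase and 1689, 1737 and 1740 in the control. The groups did not overlap, and the log2 fold change was -0.16 ± 0.06 (adjusted p = 0.029, limma). This call rested on single arrays, since the adjusted p was 0.12 without zymolyase replicate 3, 0.07 without control replicate 2 and 0.077 without control replicate 3. Within an array, the log2 ratio of RCN2 over RCN1 changed by -1.30 with zymolyase, and the groups did not overlap (exact permutation test, p = 0.1).

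CRZ1 encodes the zinc-finger transcription factor that calcineurin activates. Its signals were 252, 274 and 305 with zymolyase, against 233, 233 and 226 in the control. The control arrays lay close together and all zymolyase arrays were above them. The log2 fold change was 0.26 ± 0.10 (adjusted p = 0.030, limma), or 1.2-fold. Leaving out an array ended the call in 5 of 6 cases: the adjusted p was 0.055 and 0.13 without zymolyase replicates 2 and 3, and 0.054, 0.056 and 0.079 without control replicates 1, 2 and 3.

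CCH1 encodes the pore-forming subunit of the plasma membrane calcium channel. Its signals were 308, 293 and 312 with zymolyase, against 209, 257 and 239 in the control. The groups were apart, and CCH1 averaged 304 ± 10.2 and 235 ± 24.4 (SD, n = 3 each), with a log2 fold change of 0.38 ± 0.10 (adjusted p = 0.0041, limma). MID1 encodes the stretch-activated partner subunit of that channel, and its signals were 401, 333 and 399 with zymolyase and 422, 355 and 383 in the control. These ranges overlapped, and MID1 did not pass (log2 fold change -0.04 ± 0.10, 95% confidence interval -0.25 to 0.18, adjusted p = 0.75, limma). The log2 ratio of MID1 over CCH1 changed by -0.41, with groups that did not overlap (exact permutation test, p = 0.1), but the change was -0.09 (p = 0.9) once the length trend described below was removed.

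PMC1 encodes the vacuolar calcium pump, which is a target of Crz1. Its signals were 1251, 1170 and 1156 with zymolyase, against 790, 848 and 873 in the control. No array of either group came near the other group. PMC1 averaged 1192 ± 51.3 with zymolyase and 837 ± 42.9 in the control (SD, n = 3 each), a 1.42-fold rise (log2 fold change 0.51 ± 0.06, adjusted p = 9.7e-06, limma).

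PMR1 encodes the Golgi pump for calcium and manganese. Its signals were 1323, 1469 and 1518 with zymolyase, against 1274, 1227 and 1312 in the control. The lowest zymolyase array exceeded the highest control array only narrowly. The log2 fold change was 0.17 ± 0.06 (adjusted p = 0.025, limma). The adjusted p was 0.080 and 0.093 without zymolyase replicates 2 and 3, and 0.051 and 0.086 without control replicates 1 and 2. The log2 ratio of PMR1 over PMC1 changed by -0.34 (exact permutation test, p = 0.1, groups not overlapping).

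The signal ranges of the groups did not overlap for 8 of the 10 members, against 73.3% of all tested probe sets. The median log2 fold change of the members was 0.24, against -0.08 for all tested probe sets. The median absolute log2 fold change was 0.24 for the members and 0.44 for all tested probe sets. Most members therefore moved less than a typical probe set on these arrays, apart from CMP2, RCN1 and PMC1.

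The members are of very unequal length, and changes on these arrays depended on length. The 1349 tested probe sets of shortest coding length, up to 768 nt, had a median log2 fold change of -0.40, and the 1348 of longest, from 1908 nt upward, had 0.26. CCH1, with 6120 nt, was longer than 99.4% of the genes of tested probe sets, PMC1, with 3522 nt, than 94.9%, and PMR1, with 2853 nt, than 90.2%. CNB1 (604 nt), RCN1 (636 nt) and RCN2 (798 nt) lay below the median of 1245 nt. Control probe sets at the 3' and 5' ends of transcripts also differed between the groups: the log2 ratio of 3' over 5' signal for ACT1 was between 1.22 and 1.34 with zymolyase and between 0.90 and 1.13 in the control (exact permutation test, p = 0.1), and the mean ratio was higher with zymolyase for 8 of 8 control genes. The difference in mean log2 ratio was 0.26 for ACT1 and ran from 0.1 for TDH1 to 1.31 for SRB4. The ranges of the groups overlapped for EAF5 and WBP1 (exact permutation test, p = 0.8 and 0.3). The 8 also include URA3, which the strain label gives as the deletion ura3Δ0. If that label holds, its ratio (mean -0.41 with zymolyase and -0.63 in the control) cannot be taken as a reading of transcript ends. URA3 would then not count among the 8. Whether RNA integrity had a part in these changes was not tested.

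**Figure D2:**
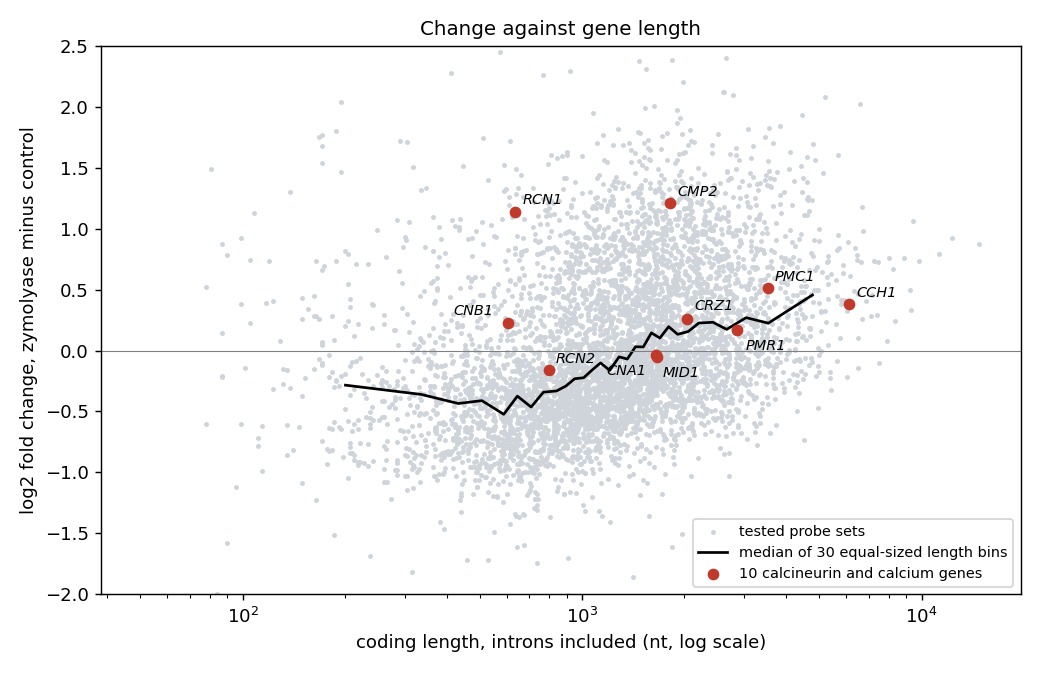
Log2 fold change, zymolyase minus control (vertical axis), against coding length in nt (horizontal log axis) for the tested probe sets (grey; 23 lie outside the plotted range) and the 10 genes (red), with the median of 30 equal-sized length bins as a black line. CMP2 and RCN1 lie far above the line and CNB1 above it, while CRZ1, PMR1 and CCH1 lie close to it, and CNA1 and MID1 just below it.

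With this trend removed from each array by a local regression on length, 3 members rose, 2 fell and 5 did not pass, while 68.9% of all tested probe sets passed, 28.7% upward and 40.2% downward. The median log2 fold change of the members was then 0.03, against -0.11 for all tested probe sets. The rises of CMP2 (log2 fold change 0.98 ± 0.06, adjusted p = 2.2e-08, limma), RCN1 (1.43 ± 0.13) and CNB1 (0.53 ± 0.06) were kept, and those of the short genes RCN1 and CNB1 were larger. The small changes of the other members depended on the trend. CCH1, PMR1 and RCN2 changed sign, to log2 values of -0.14, -0.15 and 0.06, and none of these 3 passed (adjusted p = 0.24, 0.052 and 0.37, limma). CRZ1 was at 0.00 ± 0.10 and PMC1 at 0.13 ± 0.06, neither of which passed (adjusted p = 0.98 and 0.078, limma). CNA1 and MID1 passed downward, at -0.24 and -0.23 (adjusted p = 0.030 and 0.048, limma). The within-array ratios of CMP2 over CNA1 and of RCN2 over RCN1, which set genes of similar length against each other, changed by 1.23 and -1.37 with the trend removed.

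**Figure D3:**
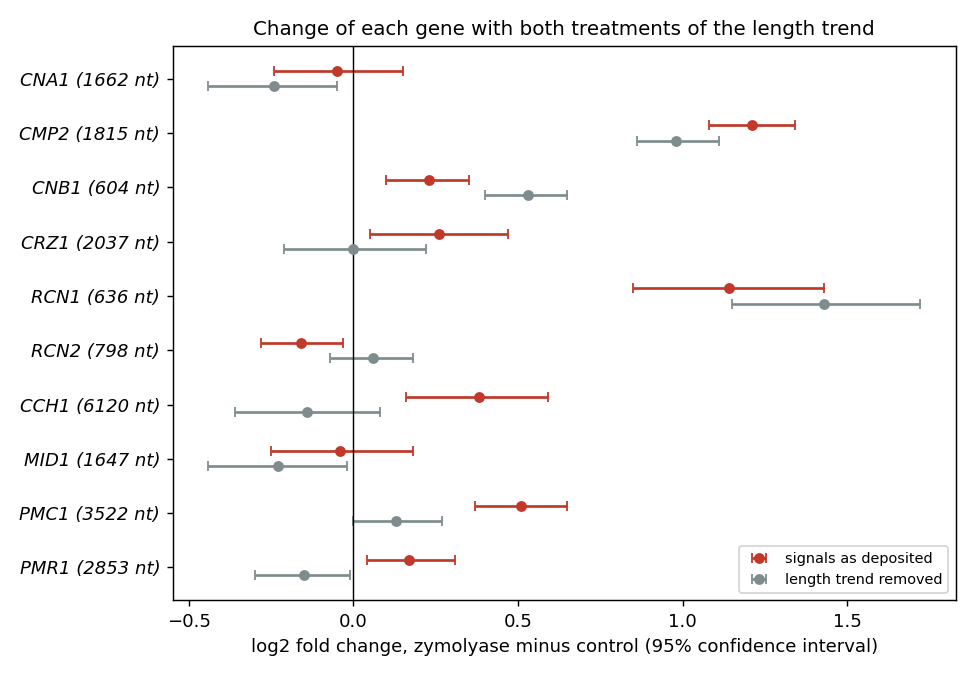
Log2 fold change, zymolyase minus control (horizontal axis), with 95% confidence intervals for the 10 genes, from the signals as deposited (red) and with the length trend removed (grey). The intervals of CMP2, RCN1 and CNB1 lie above 0 in both, whereas CCH1 was 0.38 as deposited and -0.14 with the trend removed.

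Genes that Crz1 activates were taken as a list of 15 outside the members, of which 13 were measured. ENA1 and NCW2 had no probe set naming that gene alone and were not analysed here. Of the 13, 5 rose, 4 fell and 4 did not pass, with a median log2 fold change of 0.10, so the list did not move in 1 direction. The rises were those of the ammonium transporter gene MEP1 (1.79 ± 0.19), the wall enzyme gene CRH1 (1.02 ± 0.06), the glucan synthase gene GSC2 (0.95 ± 0.06), the yapsin protease gene YPS1 (0.73 ± 0.07) and DFG5 (0.65 ± 0.06), a glycosylphosphatidylinositol-anchored wall protein. These values are log2 fold changes, and the largest adjusted p among them was 2.3e-06 (limma). With the length trend removed, the 5 rises still passed, at 1.64, 0.86, 0.45, 0.52 and 0.55 in the same order.

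The Crz1 targets that fell, named after their values were seen, were the peroxidase gene GPX2 (log2 fold change -0.53 ± 0.09), the plasma membrane protein gene PUN1 (-0.48 ± 0.06), the wall glucanase-like gene SCW10 (-0.28 ± 0.07) and the glucan synthesis gene KRE6 (-0.25 ± 0.06). CMK2, a calmodulin-dependent kinase gene and a long-known calcineurin target, had 1085, 1029 and 1015 with zymolyase and 1106, 1143 and 1169 in the control. Its log2 fold change of -0.13 ± 0.06 did not pass (adjusted p = 0.062, limma), although every zymolyase array was below every control array. It passed downward with median centring (-0.17, adjusted p = 0.016, limma) and with the length trend removed (-0.22, adjusted p = 0.0043). The phosphate transporter gene PHO89 was dim, with 38.4, 38.1 and 52.5 with zymolyase and 1.81, 36.5 and 29.7 in the control. It was below background on 1 of 3 control arrays and did not pass (adjusted p = 0.088, limma), but it passed without control replicate 2 (0.026) or without control replicate 3 (0.037). With the length trend removed, 5 targets rose, 7 fell and 1 did not pass, and the median was -0.20. Of all tested probe sets, 28.7% then passed upward and 40.2% downward. GPX2, PUN1, SCW10 and KRE6 were then at -0.20, -0.26, -0.28 and -0.52. GYP7 (-0.32, adjusted p = 0.0019, limma) and CHS1 (-0.27, adjusted p = 0.013) passed downward only with the trend removed.

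Calcium handling genes and calmodulin formed a list of 11 outside the members, in which 3 rose, 5 fell and 3 did not pass, with a median log2 fold change of -0.01, and of 0.11 with the length trend removed. The largest rise was that of SPF1, an ATPase of the endoplasmic reticulum needed for normal calcium levels, with 3428, 3099 and 2931 with zymolyase against 1285, 1510 and 1365 in the control. The log2 fold change of SPF1 was 1.19 ± 0.07 (adjusted p = 1.9e-08, limma) and was 0.80 with the length trend removed. ECM7, KCH1 and FIG1, which have parts in calcium entry, fell. ECM7, a membrane protein acting with the Cch1-Mid1 channel, had 385, 397 and 364 with zymolyase against 619, 688 and 710 in the control. Its log2 fold change was -0.81 ± 0.08 (adjusted p = 8.6e-07, limma). KCH1, a potassium transporter that promotes calcium entry during mating, had 189, 206 and 218 with zymolyase against 424, 300 and 327 in the control, with a log2 fold change of -0.76 ± 0.12 (adjusted p = 0.00012, limma).

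FIG1, a membrane protein of calcium entry during mating, was not well above background on any zymolyase array, with signals of 12.3, 23.8 and 0.918, against 42.6, 41.8 and 37.8 in the control. It was at least 1.54-fold lower, a bound that sets each dim array to the background percentile and was not itself tested. The limma test used the signals without that bound (log2 fold change -2.66 ± 0.94, adjusted p = 0.022). The adjusted p was 0.070 without control replicate 1 and 0.058 without control replicate 2, and it was 0.082 with eBayes run without its intensity trend. PRM6, another gene of this list, was at background in both groups and has no fold. The other falls were those of PLC1, the phospholipase C gene (log2 fold change -0.45 ± 0.08), and CMD1, calmodulin (-0.21 ± 0.06), and CMD1 was at 0.11 with the length trend removed (adjusted p = 0.13, limma). CMK1, a calmodulin-dependent kinase gene, rose (0.36 ± 0.07). GDT1, a Golgi calcium transporter gene, rose by 0.16 ± 0.07 on the log2 scale (adjusted p = 0.048, limma), a call lost without zymolyase replicates 1 and 3 (0.19 and 0.11) and without control replicates 1 and 3 (0.096 and 0.17). It was also lost under quantile normalization (0.079), with median centring (0.13) and with eBayes run without its intensity trend (0.12). With the length trend removed, GDT1 passed at a larger change (0.35 ± 0.07, adjusted p = 0.00051, limma). The vacuolar channel gene YVC1 and the vacuolar exchanger gene VCX1 had log2 fold changes of -0.01 ± 0.07 and 0.16 ± 0.07 and did not pass. YVC1 passed downward with the length trend removed (-0.27, adjusted p = 0.0025, limma). The VCX1 call was gained without zymolyase replicate 3 (adjusted p = 0.026) and without control replicate 2 (0.010).

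**Figure D4:**
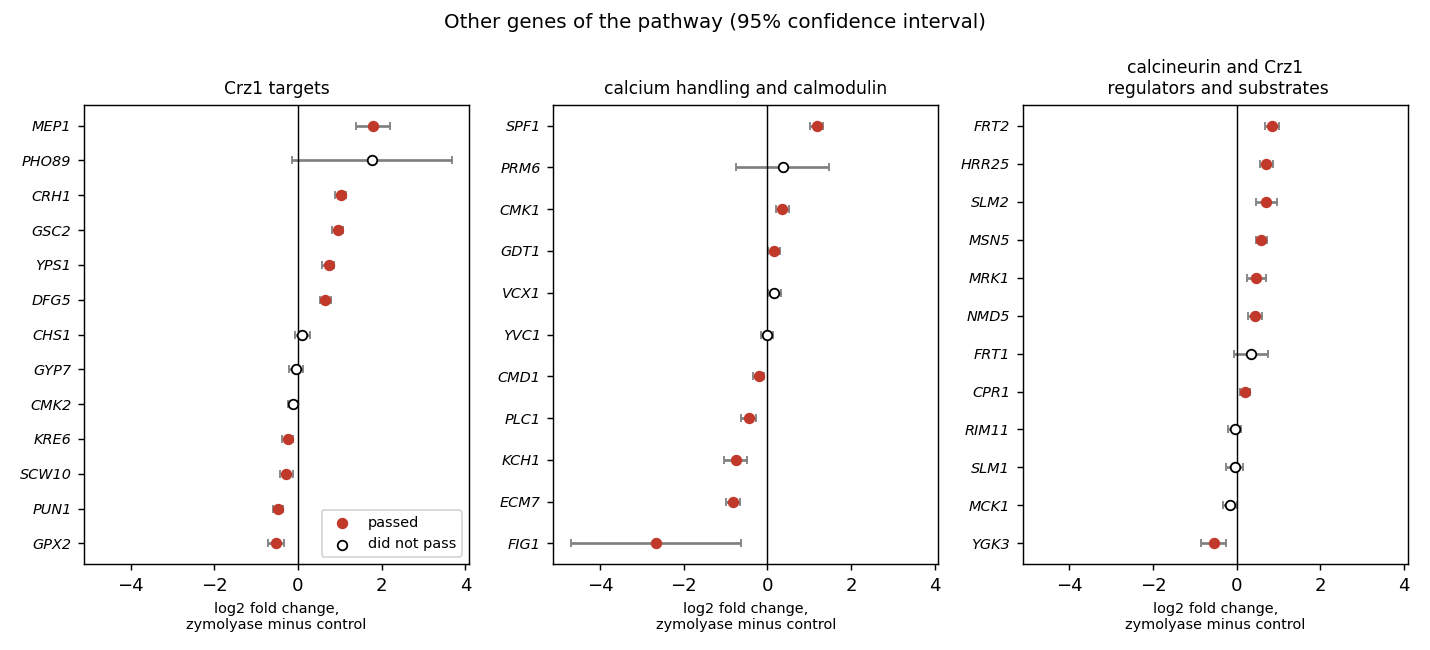
Log2 fold change, zymolyase minus control (horizontal axes), with 95% confidence intervals for the measured genes of 3 lists outside the members; red points passed the limma test and open points did not. Crz1 targets run from -0.53 for GPX2 to 1.79 for MEP1, and the interval of FIG1 is wide because its zymolyase signals lie at background.

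Proteins that act on calcineurin or Crz1, or that calcineurin acts on, formed a list of 13, of which 12 were measured and FPR1 was not analysed here. Of these 12, 7 rose, 1 fell and 4 did not pass, with a median log2 fold change of 0.38. With the length trend removed, 6 rose, 2 fell and 4 did not pass, and the median was 0.16. FRT2, whose product works with the calcineurin substrate Frt1 in the endoplasmic reticulum membrane, had 488, 501 and 501 with zymolyase against 271, 264 and 296 in the control (log2 fold change 0.84 ± 0.08, adjusted p = 8.4e-07, limma). HRR25, a casein kinase that phosphorylates Crz1, had 1137, 1144 and 1124 with zymolyase against 632, 750 and 705 in the control (0.71 ± 0.07). SLM2, a lipid-binding calcineurin substrate of the TORC2 pathway, rose by 0.71 ± 0.12 on the log2 scale, while its relative SLM1 did not pass (-0.05 ± 0.09, adjusted p = 0.63, limma) except downward with the length trend removed (-0.31, adjusted p = 0.0091).

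Both nuclear carriers of Crz1 were higher with zymolyase. The exporter gene MSN5 rose by 0.59 ± 0.06 and the importer gene NMD5 by 0.43 ± 0.08 on the log2 scale. With the length trend removed these changes were 0.21 (adjusted p = 0.011, limma) and 0.08 (0.37), so that NMD5 no longer passed. The GSK-3 family kinases went different ways: MRK1 rose (0.47 ± 0.10), YGK3 fell (-0.55 ± 0.14), and RIM11 and MCK1 did not pass (-0.04 ± 0.07 and -0.16 ± 0.08). MCK1 passed downward without zymolyase replicate 1 (adjusted p = 0.030) and without control replicate 1 (0.036), as well as with quantile normalization (0.049) and median centring (0.029). CPR1, the cyclophilin through which cyclosporin A inhibits calcineurin, rose by 0.20 ± 0.05 on the log2 scale. On the signals as deposited, 69.2% of the Crz1 targets, 72.7% of the calcium handling genes and 66.7% of the regulators and substrates passed. Each share is near that of all tested probe sets, 71.5%, made up of 32.6% upward and 38.9% downward. With the length trend removed, 1 of 13 Crz1 targets, 3 of 11 calcium handling genes and 4 of 12 regulators and substrates did not pass. Of all tested probe sets, 68.9% then passed.

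The pattern of CMP2, the member with the largest change, was compared with 5384 probe sets of other genes by the Euclidean distance between log2 signals over 6 arrays, each centred on its control mean. The nearest were YGR210C, RSF2, a zinc-finger transcription factor gene, and FAA4, a fatty acyl-CoA synthetase gene, at distances of 0.076, 0.077 and 0.079. FAA4, for example, averaged 4512 ± 196 with zymolyase and 1957 ± 25.0 in the control (SD, n = 3 each). With 2 groups of arrays this likeness is mostly that of a single difference.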

How the data were processed

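Total RNA (about 500 ng per sample) was labelled from the 3' end and hybridised to Affymetrix yeast arrays, per the labels' protocols. The deposited signal intensities are linear MAS5 values. The submitters' processing notes name MAS5 as what the authors used, and its version is not given in the sources used here. The mean trimmed by 2% at each end was 500.41 to 500.43 on every array, and this scaling was kept. Among the 15 pairs of arrays, 0 were identical. Depth does not apply to arrays, and the 3 arrays per group limit the precision.

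Probe sets were named through the platform's annotation and the RefSeq table of assembly R64. Of 10928 probe sets, 5498 named 1 S. cerevisiae gene. A further 1747 named genes outside that table and were taken as the second species of the design, the background. Probe sets were tested where the mean signal was above 10.1, the 90th percentile of such means in the second species, which left 5394. The brightest probe set stood for a gene. The fit to log2 signals used lmFit and eBayes with an intensity trend, from limma 3.58.1 under R 4.3.3. Lengths are from the same table, introns included, and 96.8% are multiples of 3, so they are called coding lengths. The length trend was a local regression per array (span 0.5, degree 1) on log2 length. The fit was tested on simulated data.

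The members and lists were chosen with earlier results of these data known. All members are named, with the 4 largest called changes of each further list, its genes at background, and the 3 genes nearest to the member of largest change. Further genes of these lists were named after their values were seen. Alternatives were the length trend removed, each array left out, the replicate number as a block, median centring, quantile normalization, an offset of 50, eBayes without the intensity trend, and no filter or one at the 99th percentile. No mature, promoter or protein sequence was used here.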

Additional observations from a re-analysis of the deposited data

How the results depend on the processing

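The calls of CMP2, RCN1 and CNB1 kept their direction and stayed past the threshold under all 14 alternatives, with log2 fold changes of 0.98 to 1.25, 0.90 to 1.43 and 0.18 to 0.53. The number of members called was 8, and 5 with the length trend removed. It was between 5 and 8 when an array was left out, with 5 without zymolyase replicate 3 and 5 without control replicate 2, where fewer samples entered the fit. With the length trend removed, RCN2 (0.06), CCH1 (-0.14), PMR1 (-0.15), CHS1 (-0.27) and CMD1 (0.11) changed sign. With median centring, CRZ1 and PMR1 did not pass (adjusted p = 0.071 and 0.11, limma). Without an intensity trend, RCN2 and PMR1 did not pass (0.065 and 0.065), nor did FIG1 and GDT1 (0.082 and 0.12). The same-numbered arrays were not treated as pairs. The deviations of arrays with the same number correlated at 0.02 to 0.07, and those with other numbers at -0.09 to 0.04. For 2 of 3 zymolyase arrays and 2 of 3 control arrays the best correlation was with their own number. These small values do not settle whether the arrays were paired. With the replicate number as a block, 3933 probe sets were called instead of 3857, the number of members called was 8, PHO89 and VCX1 passed upward (adjusted p = 0.04 and 0.03, limma), and every within-array ratio kept its value (CMP2 over CNA1 at 1.26). The signed-pair exact test then gives p = 0.25, the smallest that 3 pairs allow. Dim probe sets such as FIG1 and PHO89 are limited by signal over background.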
